A study of Mus musculus with 143 samples.

Results

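Clustered distal enhancers with RNA polymerase II are the captured regions of the class Enh_K4me1_K27ac_PolII that lie away from captured promoters and close to other captured enhancers. A region was a member when no region of the classes Pro_K4me3_K27ac_PolII or TSS_Random started within 5000 bp of it and 2 or more other regions of an enhancer class (Enh_K4me1, Enh_K4me1_K27ac or Enh_K4me1_K27ac_PolII) started within 12.5 kb. The rule used positions and class names only, and no measured activity. It found 1496 members among the 7600 regions of the class and the 12897 regions measured. Each member was 400 bp long, and coordinates are of the mouse genome build mm9.

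Activity was measured by capSTARR-seq in P5424, a mouse T cell line, in 2 RNA replicates and 1 input library that serves both. The labels give no genotype, treatment or time for these libraries, and they name total RNA as the molecule of all 3. They do not say whether the replicates are separate transfections, so the spread between them may be technical. The cells that gave the marks behind each class are not named in the labels. The other 140 of the 143 samples of the series were not analysed here.

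Enhancers are DNA elements that raise transcription from promoters at a distance. H3K4me1 marks enhancers in general, H3K27ac marks the active ones, and RNA polymerase II at an enhancer goes with transcription of the enhancer itself. Enhancers that lie close together around genes of cell identity are often stitched into larger units called super-enhancers, and 12.5 kb is a spacing commonly used for stitching. In a STARR-seq reporter each fragment is cloned on a plasmid downstream of a minimal promoter and is read in the RNA it drives, so a fragment is tested without its genomic neighbours. The data thus give the activity of each piece of a cluster on its own. No genome of build mm9 was at hand, so no sequence, motif or gene is given for a region. The regions are named by coordinates.

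The members formed 606 loci, a locus being a chain of enhancer-class regions whose consecutive starts lie within 12.5 kb. Loci were found on 20 chromosomes and spanned from 1050 to 49000 bp, with a median of 11712 bp. They held 3 to 9 regions each, 378 of them 3, 145 of them 4, 50 of them 5 and 33 of them 6 or more. Beside the 1496 members the loci held 406 regions of Enh_K4me1_K27ac, 58 of Enh_K4me1 and 226 of Enh_K4me1_K27ac_PolII that were no members, 224 of them for having fewer than 2 neighbours themselves and 2 for lying near a promoter-class or TSS_Random start. No member overlapped another member, and neighbouring members started at least 650 bp apart. A further feature was that 82 members overlapped a region of another class, 73 an Enh_K4me1_K27ac region, 8 an Enh_K4me1 region and 1 a Random region. The rule counted such an overlapping enhancer region as a neighbour, and counted neighbours that overlap each other separately. With overlapping regions merged before counting, 1396 of the members kept 2 or more neighbours.

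The distance to captured promoters left out few regions. Only 29 of the 7600 regions of the class lay within 5000 bp of a promoter-class or TSS_Random start, and 2 of those had 2 or more neighbours. The closest member to a promoter start, on chromosome 7 from 134256775 to 134257174, stood 8765 bp away, with folds of 0.932 and 0.828. Just outside that limit, the region on chromosome 1 from 7083625 to 7084024 stood 4824 bp away, with folds of 0.772 and 1.04. At the limit for neighbours, 13 members had their second neighbour exactly 12.5 kb away. One of them, on chromosome 1 from 13283325 to 13283724, had folds of 1.83 and 1.61. The nearest region outside, on chromosome 1 from 40587075 to 40587474, had its second neighbour at 12550 bp and folds of 0.388 and 0.426.

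A fold divides RNA FPKM, raised by 1, by input FPKM raised likewise, where FPKM are fragments scaled by region length and library size. The FPKM steps returned whole reads, within 0.1 reads, for 100% of the regions of 400 bp, which gave the depth. The regions took 8999732 reads of the first RNA library, 9583168 of the second and 7199798 of the input. A member had a median of 265 reads in replicate 1, 286 in replicate 2 and 263.5 in the input, where the lowest had 14 and the highest 7467. Of the members, 229 had under 100 input reads, and 34 had no read in at least 1 RNA replicate.

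Most members, like most regions measured, drove less RNA than their input share. The median fold was 0.817 in replicate 1 and 0.854 in replicate 2, against 0.852 and 0.862 over all 12897 regions. Under 1 in both replicates were 783 members, or 52.3%, beside 50.8% of all regions and 50.3% of those with no neighbour. A region was called active at a fold of at least 1.5 in both replicates. This held for 102 members, or 6.82% (Wilson 95% interval 5.65 to 8.21), beside 8.51% of all regions. Another 75 members reached 1.5 in replicate 1 only and 88 in replicate 2 only. Single replicates gave 177 members in replicate 1, or 11.8% beside 13.6% of all regions, and 190 in replicate 2, or 12.7% beside 14.6%. By the authors' deposited table, which gives an active or inactive class per replicate, 39 members were active in both, or 2.61% beside 2.7% of all regions.

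Strong activity, a fold of at least 3 in both replicates, was seen in 17 members, 1.14% (0.711 to 1.81) beside 0.985% of all regions. In the Random class, which holds background regions by its name, 6 of 478 regions were active, or 1.26% (0.577 to 2.71), and none was strongly active. The intervals cover counting error over regions, and reads without molecular identifiers are not independent molecules. The 2 replicates share their input, so an error of the input moves both folds of a region together.

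**Figure D1:**
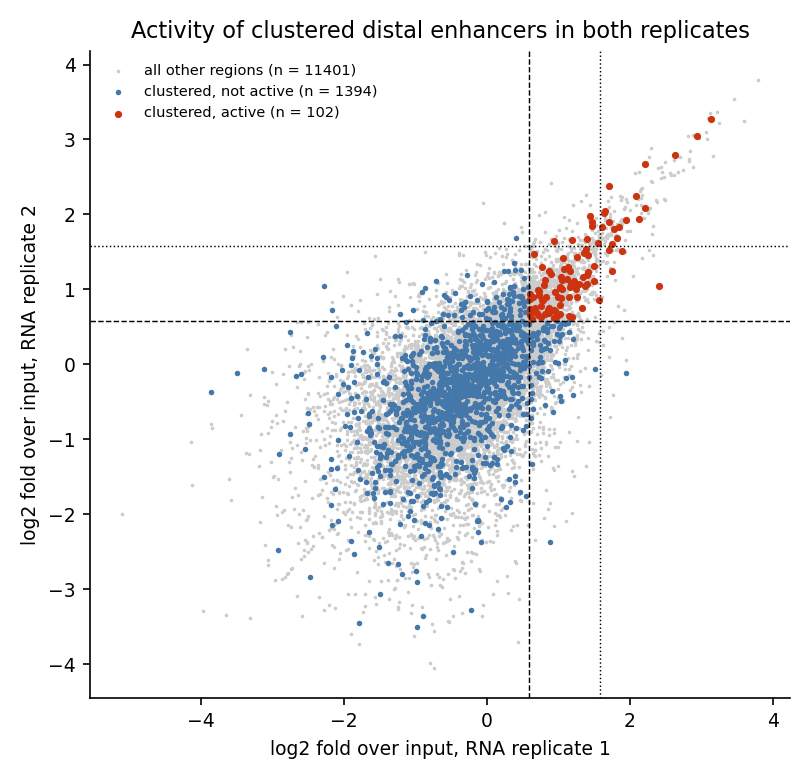
Log2 fold over input in RNA replicate 1 (x axis) and replicate 2 (y axis), 1 point per region. Active members are red, the other members blue and all other regions grey; dashed lines mark a fold of 1.5 and dotted lines a fold of 3. The 102 active members lie in the upper right corner, and the mass of the members lies below 0 on both axes.

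The replicates ranked the members alike to a moderate degree. Across the 1496 members the log2 folds had Pearson r = 0.614 and Spearman rho = 0.613, beside 0.642 and 0.641 over all regions. These are correlations across regions, which are not independent replicates and share their input. Log2 differences between replicates had an SD of 0.71, and 191 members, or 12.8%, differed by over 2-fold. The spread went with depth, since 24.2% of members in the lowest of 5 equal bins of all regions by input differed by over 2-fold, against 0.508% in the highest bin.

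To see whether crowding went with activity, distal regions of the same class were set side by side by their number of neighbours. Regions with no neighbour within 12.5 kb were active in 340 of 3619 cases, or 9.39% (8.49 to 10.4). Those with 1 neighbour were active in 229 of 2456, or 9.32% (8.24 to 10.5). Among members with exactly 2 neighbours 79 of 1034 were active, or 7.64% (6.17 to 9.42), and among those with 3 to 4 neighbours 18 of 425, or 4.24% (2.70 to 6.59). The most crowded members, with 5 or more neighbours, were active in 5 of 37 cases, or 13.5% (5.91 to 28.0).

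The active share was thus lower with 2 neighbours than with none or 1, lowest with 3 to 4, and highest in the small set of the most crowded members. The latter come from 15 loci only, and their 5 active members lie in 3 loci. In single replicates the shares ran 14.5%, 15.9%, 13.2%, 7.76% and 18.9% in replicate 1 over the same 5 steps, and 16.2%, 15.6%, 13.7%, 9.65% and 18.9% in replicate 2. Regions of 1 library are not replicates, so these differences were not tested. The median mean log2 fold moved little, at -0.26 with no neighbour, -0.22 with 1, -0.28 with 2, -0.31 with 3 to 4 and -0.18 with 5 or more.

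**Figure D2:**
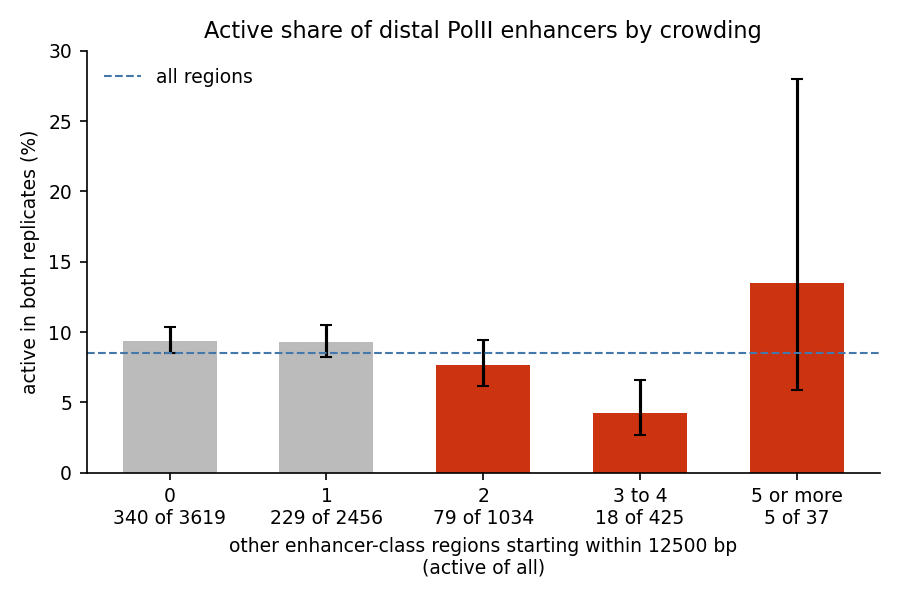
Share of distal Enh_K4me1_K27ac_PolII regions active in both replicates (y axis, %) by the number of other enhancer-class regions within 12.5 kb (x axis). Bars are shares, error bars Wilson 95% intervals, red bars the members, and the dashed line is the 8.51% of all regions; the lowest bar is that of 3 to 4 neighbours at 4.24%.

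Median input depth was similar in these sets, at 263.5 input reads in members, 257 in regions with 1 neighbour and 270 in isolated regions. Within these 5 bins the members were active in 6.27%, 4.75%, 5.18%, 8.55% and 11.2% of cases, from the lowest to the highest. Isolated regions stood at 9.03%, 10.0%, 8.87%, 6.49% and 14.0%. Members were lower than isolated regions in 4 of the 5 bins and higher in the fourth. The strong calls differed less, with 1.14% of members, 1.19% of isolated regions and 1.47% of regions with 1 neighbour.

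**Figure D3:**
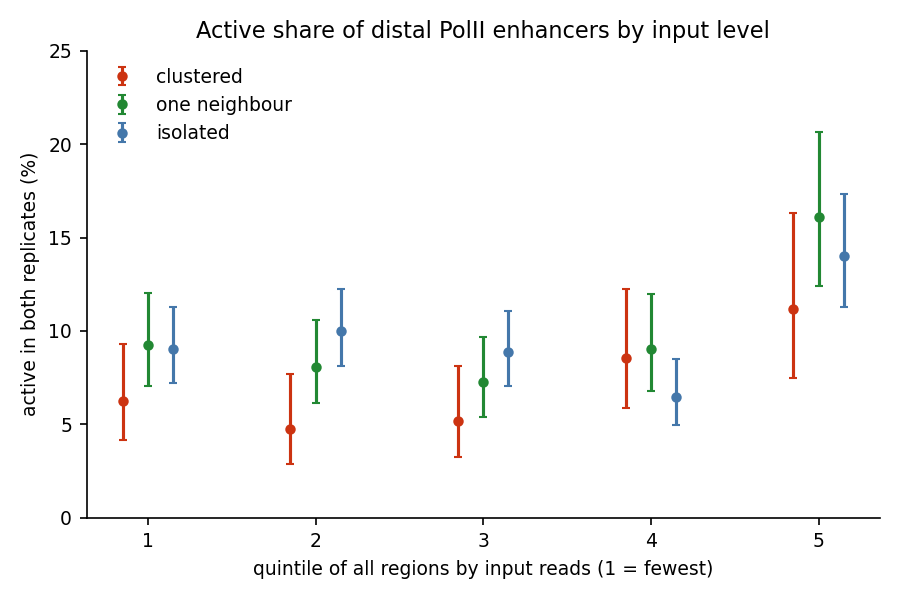
Share of regions active in both replicates (y axis, %) by bin of input reads (x axis, 5 equal bins of all regions, 1 = fewest), for clustered members, regions with 1 neighbour and isolated regions. Points are shares and bars Wilson 95% intervals; the members stand at 6.27% in the lowest bin and 11.2% in the highest.

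Most loci held no active member. Per region the active share was 7.00% over all regions of the loci, beside 8.51% of all regions measured. Of 606 loci, 95 held an active member, or 15.7% (13.0 to 18.8): 89 held 1, 5 held 2 and 1 held 3. The other 511 held none. Counting every region of a locus, of whatever enhancer class, 129 loci held an active region, or 21.3% (18.2 to 24.7), and 477 held none. Chains of all sizes, single regions included, held an active region in 10.3% of cases.

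That share was lowest for single regions and highest for chains of 5 or more, and did not go up from 3 to 4 regions. It was 7.78% for 1 (433 of 5562), 223 of 1484 chains for 2, 19.5% for 3, 19.2% for 4 and 33.7% for 5 or more. The share per region showed no such order, at 7.78%, 7.99%, 7.41%, 5.65% and 8.01%. A mean fold of 1.5 or more over the whole locus in both replicates was reached by 11 of the 606 loci, while 382 had a mean below 1 in both.

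The regions of 1 locus differed in fold. The highest and lowest region of a locus were a median of 1.11 apart in mean log2 fold, and 0.92 at 100 or more input reads. Over all members the quartiles of the mean log2 fold were -0.75 and 0.17, and log2 differences between replicates had an SD of 0.71. The range was not compared with that of unrelated regions, so it is not shown to be a trait of the loci. In the 95 loci with an active member, the highest region had a median mean log2 fold of 1.16, and the next separate region, one that does not overlap the first, had 0.07. The median gap between them was 1.07. In loci with no active region the highest region had a median of 0.15 and the gap was 0.35. The highest region of a locus is chosen by its value, so some gap is given by the choice. The loci were also split by whether a region was active, so the contrast between loci with and without one is given by the split.

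Neighbouring members were little alike in activity. Between members whose starts lay 650 to 1000 bp apart (134 pairs), the mean log2 folds had Pearson r = 0.175 and Spearman rho = 0.186. For 417 pairs at 1025 to 5000 bp the values were -0.043 and -0.030, and for 332 pairs at 5025 bp to 12.5 kb they were 0.052 and 0.034. Regions with a single neighbour gave r = -0.221 over 111 pairs at up to 1000 bp, 0.014 over 370 pairs and 0.084 over 322 pairs. Near pairs thus had a weak positive value in members and a weak negative one in regions with 1 neighbour. Input levels of neighbouring members had r = 0.186, 0.059 and 0.151 in the 3 distance steps. All pairs come from the same 3 libraries. An active member was part of 17 of the 134 closest pairs, and in 1 of these pairs both members were active.

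**Figure D4:**
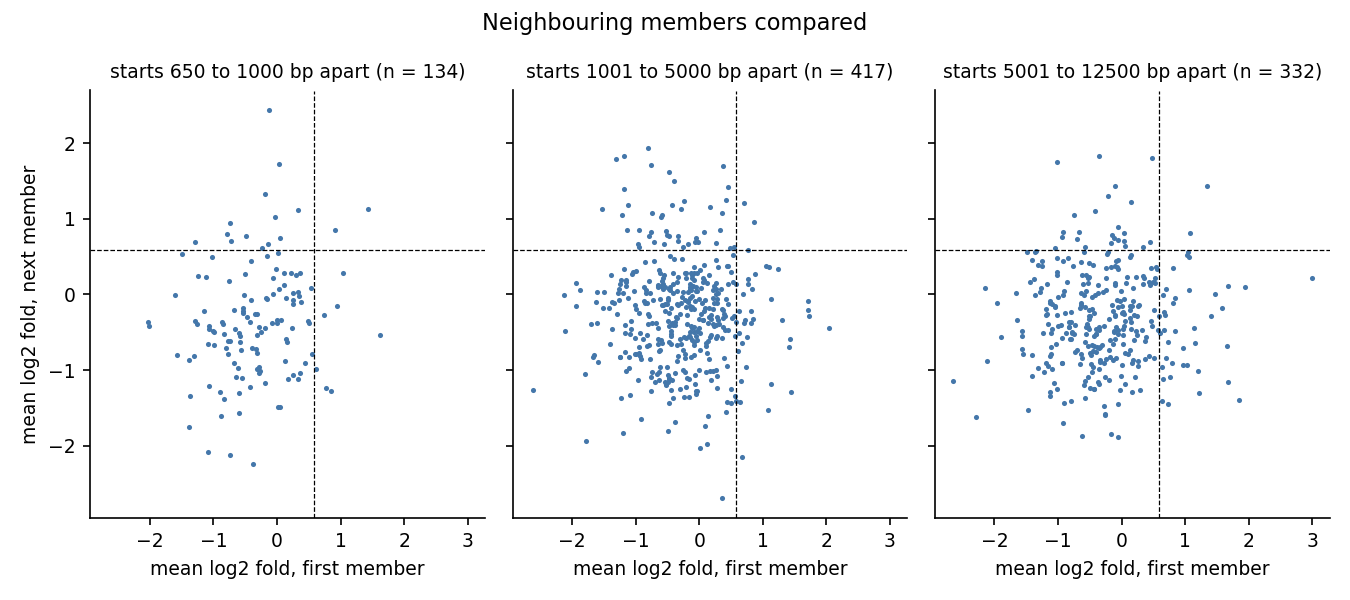
Mean log2 fold of each member (x axis, the one at the lower coordinate) against that of the next member along the chromosome (y axis), in 3 panels by distance between starts; the dashed lines mark a mean fold of 1.5. The 134 pairs at up to 1000 bp have r = 0.175, and the clouds of the 417 and 332 more distant pairs show no slope.

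Regions that overlap share reads and were read alike. The 81 members that overlapped an enhancer region of another class, with starts shifted by 25 to 375 bp, had Pearson r = 0.986 and Spearman rho = 0.972 with that region in mean log2 fold, and the median absolute difference was 0.0099. Both regions were active in 8 of these pairs, only the member in 1 and only the other region in 1. The median shift was 125 bp and the largest difference 0.49. The pairs cover in part the same stretch of DNA under different class names, so they are no second measurement. Among the active members 9 overlapped another region.

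The members were also set beside the regions without polymerase in the same loci, which differ from them in class but share the neighbourhood. Of 464 such regions 24 were active, or 5.17% (3.50 to 7.58), and their median mean log2 fold was -0.30 against -0.28 in the members. The 226 polymerase regions of these loci that were no members had a higher active share than the members, with 27 active or 11.9% (8.34 to 16.8). Their median mean log2 fold was -0.23, and this difference was not tested. In the 362 loci that held members and regions without polymerase, the members' mean was higher in both replicates in 117 loci and lower in both in 133. Members were higher in 181 of these loci in replicate 1 and in 165 in replicate 2. The median log2 difference, members minus the others, was -5.9e-05 in replicate 1, -0.06 in replicate 2 and -0.04 in their mean. The sign of the difference thus varied from locus to locus.

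Members at the edge of a locus and inside it had similar shares. Edge members were active in 49 of 732 cases, or 6.69% (5.10 to 8.74), and those inside in 53 of 764, or 6.94% (5.34 to 8.96). A region with fewer than 2 neighbours can only lie at the end of a locus, and the rule left 224 such polymerase regions out of the members. The 226 polymerase regions of the loci that were no members were active in 11.9% of cases. The edge share is thus that of members only, and not of all polymerase regions at the edge. By distance to the nearest separate enhancer region, 6.63% of members were active at up to 1 kb, 6.32% from there to 2.5 kb, 6.25% from there to 5 kb and 8.11% beyond, up to 12.5 kb. Of the 17 strongly active members 8 were in the last of these steps, which holds 370 of the 1496 members.

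No locus held more than 1 strongly active member, where 1.14% of members and 0.985% of all regions were strongly active. The 17 lay in 17 different loci, and each was active in both replicates by the authors' deposited table. Of the 45 other regions in these loci that did not overlap them 1 was active, with mean log2 folds from -1.75 to 0.76. The active share was 8.51% over all regions and 7.00% over all regions of the 606 loci. With so few regions, this was not tested. Some of the 45 overlap each other. The input depth of the 17 strongly active members ran from 70 to 2821 reads with a median of 275, and 2 of the 17 had under 100.

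The highest member lay on chromosome 1 from 51641725 to 51642124. From 253 input reads it gave 2782 and 3221 RNA reads, which are folds of 8.73 and 9.69 and a mean log2 fold of 3.20 ± 0.11 (SD, n = 2). Its nearest enhancer region, 7150 bp away, stood at a mean log2 fold of -0.57. The member on chromosome 9 from 57804625 to 57805024 had folds of 7.67 and 8.27 from 129 input reads, with its nearest region at 0.22, 6050 bp away. The third, on chromosome 2 from 166315325 to 166315724, is among the most deeply read, with 2270 input reads and 17025 and 19828 RNA reads. Its folds were 6.20 and 6.93, while the region 1899 bp away stood at a mean log2 fold of -1.08. Its second neighbour starts 1900 bp away and overlaps the first, so the member has 1 separate neighbouring stretch. In all 3 the replicates lay far closer to each other than to the neighbouring region.

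Similar contrasts were seen at shorter distances. On chromosome X the member from 93326125 to 93326524 had folds of 4.64 and 6.35 from 104 input reads. The member that starts 700 bp before it, at 93325425, had folds of 0.703 and 1.19 from 60 input reads, and this pair had the largest difference of all neighbouring members at up to 1000 bp. On chromosome 1 the member from 186234925 to 186235324 had folds of 4.36 and 3.85, with a region at a mean log2 fold of 0.14 only 750 bp away. On chromosome 10 the member from 13702650 to 13703049 had 2821 input reads and folds of 3.85 and 3.81, and a region 1025 bp away stood at -0.81.

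The other 6 of the 12 highest members had folds from 3.27 to 5.19. Those on chromosome 6 from 94597475 (4.62 and 4.23) and on chromosome 10 from 77623575 (3.41 and 3.51) had their nearest region at mean log2 folds of -1.09 and -1.31. Those on chromosome 15 from 85239625 (3.58 and 3.56) and on chromosome 6 from 115921125 (3.27 and 5.19, from 83 input reads) overlapped a region of another class that read 1.84 and 1.98. The members on chromosome 11 from 107278575 (4.23 and 4.73) and from 117153725 (3.27 and 3.72) had their nearest regions 9200 and 7400 bp away, at 0.14 and -0.45.

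At the low end, among members with at least 100 input reads, the region on chromosome 5 from 149300650 to 149301049 gave 32 and 22 RNA reads from 207 input reads. Its folds were 0.181 and 0.140, a mean log2 fold of -2.65 ± 0.26 (SD, n = 2). The next lowest, on chromosome 7 from 130334025 (0.290 and 0.0916) and on chromosome 11 from 23746175 (0.354 and 0.119), had SDs of 1.18 and 1.11 on the log2 scale. For these the replicates gave the direction but not the size.

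Loci with more than 1 active member were few. The locus on chromosome 17 from 31958275 to 31980074 held 8 regions in 21800 bp, 6 of them members. Its members starting at 31958300, 31970475 and 31971475 were active, with folds of 2.40 and 2.71, 2.67 and 2.74, and 2.28 and 2.12. The members at 31977375, 31978725 and 31979675 were not, with folds of 1.18 and 0.455, 1.01 and 0.778, and 0.982 and 0.958. The remaining region, of the class Enh_K4me1_K27ac at 31967925, was not active either, with folds of 0.859 and 0.827, and it lies between the first and the second active member. The fourth active region of this locus overlaps the first active member. By the authors' deposited table the members at 31958300 and 31970475 were active in both replicates, and the one at 31971475 in replicate 1 only.

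On chromosome 6 from 136499475 to 136503474, 3 members in 4000 bp had folds of 2.09 and 2.67, 1.25 and 1.27, and 2.26 and 2.09, so that the middle one was not active. On chromosome 2 from 170168875 to 170171674, 3 members had folds of 1.02 and 1.52, 1.64 and 1.998, and 2.05 and 1.85. On chromosome 1 from 92977000 to 92995024 the active members had folds of 2.94 and 3.06 and of 5.29 and 2.06, from 28 and 69 input reads, so depth limits both. On chromosome 11 from 100744575 to 100767074 the active members, at 100753075 and 100759225, had folds of 2.06 and 2.17 and of 1.82 and 1.69. The member at 100749775 had 1.83 in replicate 1 and 0.193 in replicate 2 from 80 input reads. Of the active members named in this paragraph, only that with folds of 2.94 and 3.06 was active in both replicates by the authors' deposited table.

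Large loci with no active region were found too. The one on chromosome 5 from 122660025 to 122691874 held 8 members with folds from 0.414 to 1.58. On chromosome 9 from 65383175 to 65406774 none of 7 members was active, and the member at 65398825 had folds of 0.0890 and 0.925. On chromosome 10 from 28402275 to 28447374 the 7 members had folds from 0.480 to 1.33, and 4 of them had between 1654 and 2694 input reads.

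**Figure D5:**
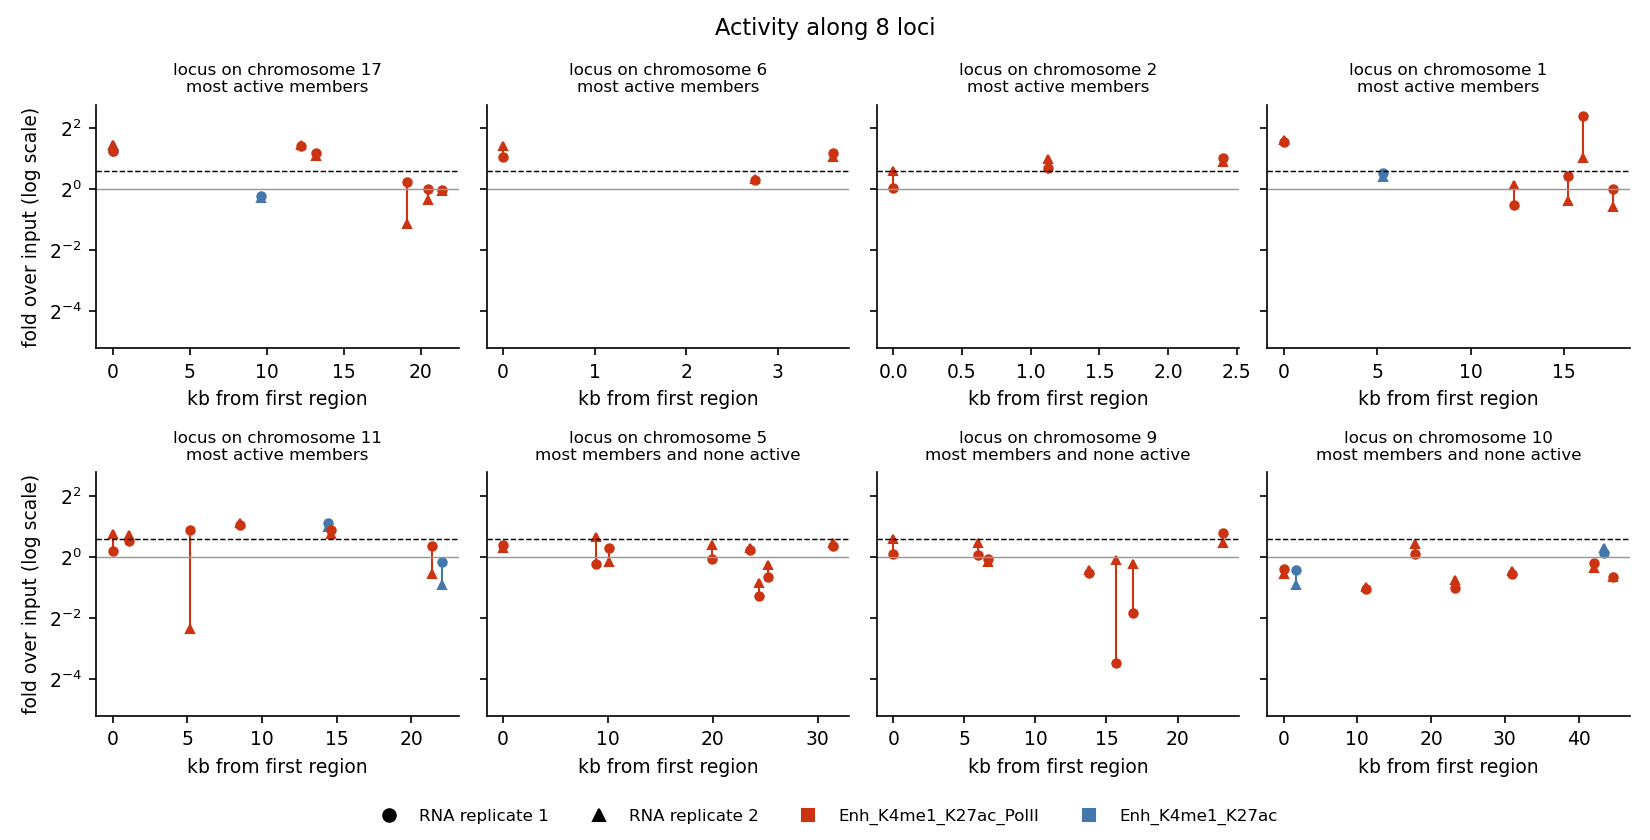
Fold over input (y axis, log scale) of every region in the 5 loci with the most active members and the 3 loci with the most members and none active, by distance from the first region of the locus (x axis, kb). Circles are RNA replicate 1, triangles replicate 2, a line joins the values of a region, colours give the class and the dashed line marks a fold of 1.5; the loci with active members hold inactive regions as well.

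Each region was also tested against the median of the Random class with limma, a linear model fitted over all 12897 regions. Log2 folds were centred on the median of the Random regions in each replicate, and the spread of that class is not in the test. Calls needed at least 1.5-fold and p under 0.05 after Benjamini-Hochberg adjustment. Above the Random centre were 304 members, or 20.3% (18.4 to 22.4), beside 24.0% of all regions. Below it were 51, or 3.41% beside 3.99%. Isolated regions were above it in 23.4% of cases and Random regions themselves in 6.49%. Below it were 4.23% of isolated and 8.79% of Random regions, so background regions are called as well. All 102 active members were among the 304, and of the 1098 active regions in the whole set 1092 were above the centre. Both calls use the same folds, and the Random centre lies below the input level. A fold of 1.5 over input is thus more than 1.5-fold over the centre, and the overlap is no separate support.

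The count depends on the centre, since the Random medians were -0.61 and -0.56 on the log2 scale and those of all regions -0.23 and -0.21. Centred on all regions, 137 members were above and 134 below, beside 11.4% and 9.82% of all regions. With no centring 74 were above and 184 below, beside 6.32% and 12.9%. The 12 highest members had limma adjusted p from 3.84e-06 to 0.00232, with log2 folds over Random from 2.37 to 3.78, and over the alternative settings p ran from 1.38e-10 to 0.0390. For the 3 lowest it was 0.00193 to 0.00888, and 1.48e-04 to 0.114 over the alternatives. The input is read once, so its error is not in these p-values. In simulated data the same fit called few unchanged regions when the input had no error, and many when it did. The simulation assumed a fixed number of reads per molecule and the same kind of error in input and RNA. The size of that error was not estimated from these data, so the simulation does not give the number of false calls here. The limma counts may be too high and the p-values too small.

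By chromosome the active share of members ran from 0 of 49 on chromosome 13, which allows counting error of up to 3 regions, to 14 of 101 on chromosome 2, or 13.9%. Over all regions these chromosomes stood at 6.96% and 10.6%. The members of 1 locus share a neighbourhood, and these values were not tested.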

How the data were processed

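capSTARR-seq captures genomic fragments into a STARR-seq reporter library and reads the RNA they drive. The deposited tables, 1 per RNA replicate, hold 12897 regions of 400 bp with the FPKM of RNA and of input, and the authors' deposited fold ratio and active class. The folds were recomputed as (RNA FPKM + 1) / (input FPKM + 1) and equalled the deposited ratio. The submitters' processing notes name mm9, Bowtie 1.2.2, Bowtie2 and TopHat2 with no roles, and the exact steps are not given in the sources used here. The labels give total RNA as the molecule of the input as well.

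Reads per region were recovered from the FPKM steps. Shares of regions have Wilson 95% intervals. limma 3.58.1 (R 4.3.3) fitted an intercept to the 2 log2 folds of each region, centred on the Random median, with the prior variance following the log2 input FPKM, and p-values were adjusted over all regions. On simulated data with no input error the fit found most of the most strongly raised regions, but it called many unchanged ones once the input carried error of an assumed size. Its p-values measure only the spread between these 2 libraries. Tables were handled in Python 3.11.15 with pandas 2.3.3 and scipy 1.17.1.

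The regions named are the 12 members with the highest lower fold, the 3 with the lowest mean log2 fold at 100 or more input reads, all regions of the 5 loci with the most active members and of the 3 largest without one, the most different close pair, and the regions next to each limit of the rule. The members, lists and rules were chosen with earlier results of these data known. Alternatives were the pseudocount (0.1 and 5 FPKM), an input minimum, the centre and trend of limma, each replicate alone, other windows, and overlapping regions merged or left out. Regions were not assigned to genes, because the gene tables used here are of another build.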

Additional observations from a re-analysis of the deposited data

How the results depend on the processing

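The active share of the members, 6.82%, was 2.61% by the authors' deposited class, 5.61% with a pseudocount of 5 FPKM and 23.5% with folds taken over the median of the Random class, and single replicates gave 11.8% to 12.7%. It was 7.22% with a pseudocount of 0.1 FPKM, 7.18% at 100 or more input reads, 6.58% without overlapping members, 7.88% with a window of 5000 bp, 8.02% with 25000 bp, and, in alternatives chosen after seeing the data, 6.52% with overlapping regions merged and 7.49% with every polymerase region of the loci. Merging left 1396 members, 91 of them active. Isolated regions, at 9.39%, had 3.18% by the authors' class, 7.43% with a pseudocount of 5 FPKM, 10.0% with 0.1 FPKM and 9.35% at 100 or more input reads. For folds over the Random median no share of other regions is given, so the 23.5% is not a result about the members. By the authors' class the steps of crowding read 3.18%, 3.14%, 2.71%, 2.12% and 5.41%. Single replicates gave 14.5% to 16.2% with no neighbour, 15.6% to 15.9% with 1, 13.2% to 13.7% with 2 and 7.76% to 9.65% with 3 to 4.

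Members above the Random centre numbered 139 with no trend, 137 centred on all regions and 74 with no centring, and those below it 9, 134 and 184. With no trend 11.6% of all regions were above and 1.16% below. With limma's mean trend 327 members were above, beside 24.6% of all regions, and 0 below, beside 0.0%, where 33 members lay below at an unadjusted p under 0.05. Of 72 named regions, many of which had no limma call to lose, 14 lost their call with no centring, 13 with no trend and 11 centred on all regions. The median log2 fold of the members was -0.21 with a pseudocount of 5 FPKM and -0.29 to -0.23 in single replicates.

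Loci with an active member made up 10.6% of 937 loci when chained at 5000 bp, and 26.1% to 27.6% in single replicates. The share over all chains is not given for these settings. The median range within loci was 1.24 to 1.31 in single replicates and 0.92 at 100 or more input reads. Neighbouring members had r = 0.129 to 0.182 at up to 1000 bp and 0.024 to 0.048 at over 5000 bp in single replicates, and 0.232 and 0.147 at 100 or more input reads. The cause of these changes was not tested. No paired analysis was possible because both RNA replicates are divided by a single input and only 1 group has numbered libraries. limma could not be fitted without a replicate, and motifs and gene lists were not run. With 2 replicates and 1 input, small differences between sets of regions are not detectable.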
